A study of Mus musculus with 2 samples.

Results

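The forkhead genes encode transcription factors that share a winged-helix DNA-binding domain. The 39 genes described here are those in both gene tables whose Ensembl identifier maps to a protein-coding symbol of the form Foxa to Foxs plus a number, of 21474 protein-coding genes with a symbol. Foxj1, Foxi3, Foxd3, Foxa1 and Foxa2 were left out by that rule and were not analysed here. Total RNA was sequenced from the embryonic facial prominence of B6NCrl mice aged 14.5 days, in 2 libraries made from 10.0 ng of RNA each. Both belong to 1 group with no genotype, treatment or control arm. The labels give each library its own biological replicate number and call each sample the cranioface of a single pup, collected on a separate day, while their sex field reads pooled male and female. With 2 samples in 1 group no test between conditions was possible, and the spread between the libraries also holds any difference of collection day.

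Forkhead proteins bind a shared core DNA sequence, and members differ mainly in the cells that make them and in the partners they recruit. Several are known regulators of the head: Foxc1 and Foxc2 act in the mesenchyme of the skull and eye, Foxf1 and Foxf2 in mesenchyme that receives Hedgehog signals, including that of the palate, and Foxe1 in the palate and thyroid. Others are made in most tissues, such as the Foxo proteins, which the kinase Akt drives out of the nucleus, Foxm1, which switches on mitosis genes, and Foxk1 and Foxk2, which recruit repressor complexes.

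Depth was 30919488 expected counts in replicate 1 and 37738872 in replicate 2. The listed markers of facial mesenchyme (8 of 8 genes), surface epithelium (7 of 7), skeletal muscle (6 of 6), chondrocytes (6 of 6), osteoblasts (6 of 6), endothelium (6 of 6) and pericytes or smooth muscle (6 of 6) all reached 1 TPM (a relative transcript level corrected for gene length and depth) in both libraries. The summed levels of some lists differed between the libraries: the summed TPM of the osteoblast list was 3654 in replicate 1 and 4611 in replicate 2, that of the muscle list 4040 and 5177, and that of the chondrocyte list 766 and 443. The part of these differences in the values below was not tested.

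Of the 39 forkhead genes, 22 (56.4%) reached 1 TPM in both libraries, against 63.9% of all protein-coding genes. A further 3 reached it in replicate 1 alone, and 14 in neither library. Their summed level was 328 and 289 TPM in replicates 1 and 2, a mean of 308.4 ± 27.9 TPM (SD, n = 2). The levels were uneven: Foxn3 and Foxp1 together held 45.7% of the family's TPM in replicate 1 and 45.5% in replicate 2. The median over members was 2.55 TPM, against 5.38 TPM over all protein-coding genes, and 7 members reached 10 TPM in both libraries. Among the 22 detected members the coefficient of variation between the faces had a median of 6.76% and a maximum of 29.2%, and its median over protein-coding genes detected in both libraries was 9.36%. Ranked by mean TPM, the 36 members with any count gave 35 neighbouring pairs, of which 21 had overlapping values in the libraries and 14 did not.

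**Figure D1:**
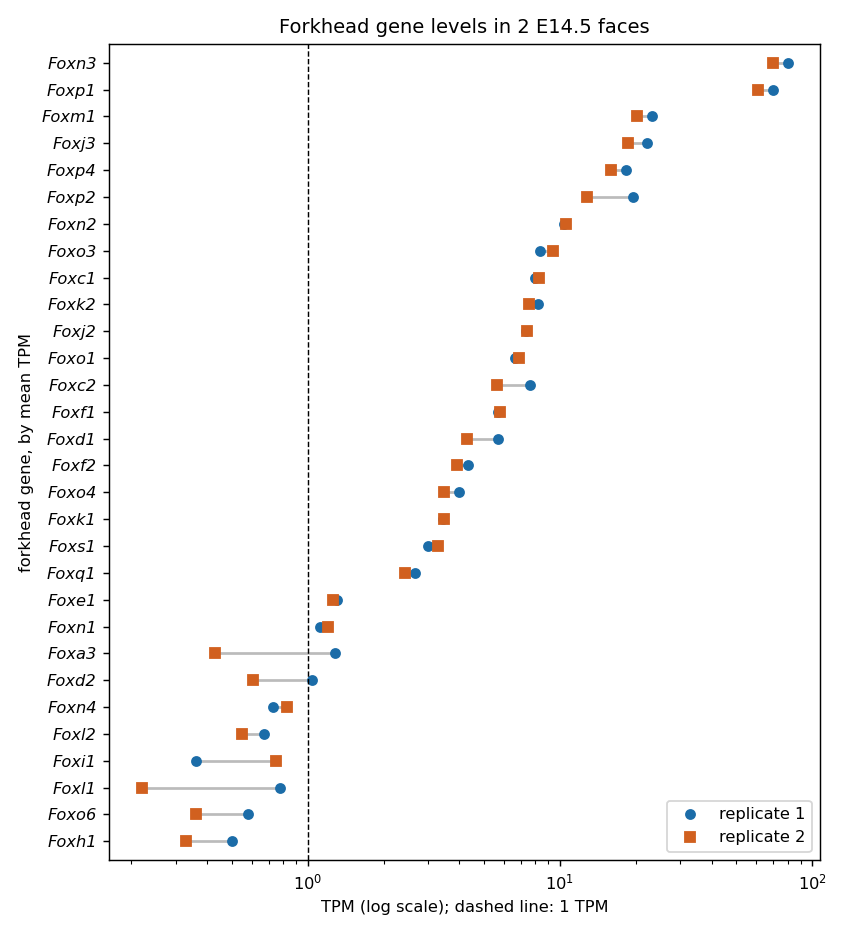
TPM on a log axis for 30 forkhead genes above the near-silent ones, ordered by mean, with a circle for replicate 1 and a square for replicate 2 joined by a grey line. Foxn3 and Foxp1 lie above 60 TPM in both libraries, and Foxa3 and Foxd2 lie on both sides of the dashed line at 1 TPM.

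The Foxp genes encode repressors that bind DNA as dimers with one another, and they held 32.1% of the family's TPM. Foxp1 (chr6:98925338-99522721, minus strand), which is needed in heart, lung and lymphocytes, stood at 70.0 and 61.2 TPM in replicates 1 and 2. Foxp4, which acts beside Foxp1 in lung epithelium, stood at 18.4 and 15.95 TPM. Foxp2, known for its role in vocal behaviour, stood at 19.5 and 12.8 TPM in replicates 1 and 2. As a ratio between the libraries, Foxp2 had the widest gap of these, and its values spanned those of Foxp4. Foxp3, the factor of regulatory T cells, had 1.16 and 2.31 expected counts, under the floor of 3 counts set for detection. Reads at Foxp3 could also come from its neighbours, since Flicr overlaps it on the same strand and Ccdc22 and Ppp1r3f overlap it on the other, and its counts were fractional. All 7 listed Foxp corepressors, which are subunits of the NuRD complex and CtBP proteins, reached 1 TPM in both libraries. The highest were Hdac2 at 229 and 201 TPM and Ctbp1 at 226 and 184 TPM, and the lowest was Gatad2b at 10.1 TPM in each.

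Foxp1 is shown with sequence because its reads were assigned to transcripts with several annotated starts whose DNA differs. The table lists 32 transcripts, grouped here by starts within 500 bases. Transcripts from the starts at 99027991 to 99028313, which lie inside the gene and whose main message has 1848 bases, held 48.1% of the gene's TPM in replicate 1 and 46.5% in replicate 2, and 29.0% and 28.6% of its counts. A long message of 7177 bases, from the start at 99435345, held 34.1% and 46.7% of the counts. Starts at 99266515 to 99266532 held 26.5% and 12.5%. The share of the starts at 99027991 to 99028313 thus stayed within 2 percentage points. The shares of the other 2 start groups, which also lie inside the gene, moved in opposite directions between the faces. Shares of a gene have a fixed sum, so these movements are not independent of each other. These shares are the quantifier's estimates for messages that share most exons, and their own error was not analysed here. Gm20696, a gene model on the same strand, overlaps Foxp1 and had 62.98 and 90.87 counts. How reads were divided between Gm20696 and Foxp1 was not tested. The stretches below come from RefSeq start windows on GRCm38.p6, read 5′ to 3′ and without annotated untranslated sequence. Capitals mark CpG dinucleotides, 30 in the stretch at the start near 99028298 and 3 in the stretch at the start near 99266515, whose share was lower in replicate 2.
Foxp1 chr6:99028314-99028548, minus strand: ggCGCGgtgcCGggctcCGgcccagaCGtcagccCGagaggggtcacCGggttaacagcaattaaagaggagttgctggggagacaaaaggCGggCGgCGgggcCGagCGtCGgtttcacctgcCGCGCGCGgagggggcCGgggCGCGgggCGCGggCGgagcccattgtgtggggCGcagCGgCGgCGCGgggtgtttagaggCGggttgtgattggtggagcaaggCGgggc
Foxp1 chr6:99266516-99266765, minus strand: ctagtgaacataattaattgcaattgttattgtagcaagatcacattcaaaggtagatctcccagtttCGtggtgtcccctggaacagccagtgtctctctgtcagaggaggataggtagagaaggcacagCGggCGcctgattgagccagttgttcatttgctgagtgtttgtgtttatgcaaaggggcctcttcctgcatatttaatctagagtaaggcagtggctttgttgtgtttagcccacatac

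The Foxn genes held 28.4% of the family's TPM, most of it from Foxn3 (chr12:99190078-99563582, minus strand), a repressor first found through a DNA damage checkpoint. Foxn3 stood at 79.9 and 70.2 TPM in replicates 1 and 2, the highest mean of the family, and its lower value was 0.2 TPM above the higher value of Foxp1. That rank rested on a short message: Foxn3-205, annotated at 566 bases with 3 exons, held 36.9% and 48.4% of the gene's TPM but only 10.8% and 15% of its counts. Foxn3-201 (2803 bases) held 58.7% and 59.0% of the counts. Counting only transcripts of 1000 bases or more, a choice made after seeing the data, Foxn3 stood at 41.3 and 33.0 TPM and Foxp1 at 57.8 and 49.9 TPM, so that the order of the pair turned round. Foxn2 stood at 10.4 and 10.6 TPM. Foxn1, which is needed in thymus epithelium and hair keratinocytes, stood at 1.12 and 1.2 TPM, and Foxn4, a factor of retinal and spinal cord progenitors, at 0.73 and 0.83 TPM. Foxn1 was thus just above the limit of 1 TPM in both faces and Foxn4 just below it. Of 6 thymus and T cell markers 1 reached 1 TPM in both libraries (summed TPM 6.85 and 6.16), and Cd3e had no count in either.

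Foxj3, an activator of the muscle regulator Mef2c, stood at 22.1 and 18.7 TPM in replicates 1 and 2, and Foxj2 at 7.32 and 7.41 TPM. Foxk2 stood at 8.22 and 7.54 TPM and Foxk1 at 3.44 and 3.48 TPM, so Foxk2 exceeded Foxk1 in each face. All 7 listed partners of the Foxk proteins, from the BAP1 and Sin3 complexes, reached 1 TPM in both libraries. The highest were Ogt at 160 and 137 TPM and Bap1 at 56.2 and 46.1 TPM, and the lowest was Asxl2 at 10.8 and 10.0 TPM.

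Foxm1 (chr6:128362967-128376146, plus strand) drives genes of G2 phase and mitosis. It stood at 23.3 and 20.2 TPM in replicates 1 and 2, overlapping Foxj3. All 12 of its listed target genes reached 1 TPM in both libraries, with a summed TPM of 1248 and 981. Birc5, a chromosomal passenger protein, stood at 214 and 174 TPM, Cenpa, the centromeric histone, at 172 and 136 TPM, and the lowest, Nek2, at 23.5 and 21.4 TPM. Relative to the median gene, 11 of the 12 targets were lower in replicate 2, with a median log2 ratio of -0.20, beside -0.06 for Foxm1 itself. The median over all genes is 0 by construction, and neither list nor gene reached a 2-fold difference by these values. Foxm1 is 1 of 9 members whose count was over 0.005 from a whole number in at least 1 library, as where reads are divided between genes, and the overlapping gene Tex52 was listed at 1.37 and 0.82 TPM. Foxn2 is among the 9 only through a count of 1322.99, which rounding of its transcripts can give. The others include Foxp1, Foxj2, Foxo1, Foxq1, Foxl1 and Foxp3.

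Of the Foxo genes, Foxo3 stood at 8.38 and 9.38 TPM in replicates 1 and 2, and Foxo1 at 6.67 and 6.91 TPM. Foxo4 stood at 3.99 and 3.48 TPM. Foxo6, known mainly from brain, stayed below 1 TPM at 0.58 and 0.36. The order Foxo3, Foxo1, Foxo4, Foxo6 held in each face without overlap. Of the 10 listed genes of the kinase cascade upstream of Foxo proteins, 9 reached 1 TPM in both libraries, with Akt2 (98.95 and 86.4 TPM) and Akt1 (61.8 and 63.8 TPM) highest and Pik3cb, a catalytic subunit of PI3-kinase, lowest at 1.19 and 0.95 TPM. All 16 listed Foxo target genes reached it. The highest were Txnip, an inhibitor of thioredoxin, at 135 and 122 TPM and Cat, encoding catalase, at 80.3 and 68.4 TPM, and the lowest was Trim63, a muscle ubiquitin ligase, at 1.64 and 1.92 TPM. Protein location, through which Akt acts on Foxo proteins, was not measured.

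The Foxc and Foxf genes, Foxq1 and Foxl1 lie in a pair of clusters. On chromosome 13, Foxq1, Foxf2 and Foxc1 lie in a row on the plus strand, with 64.8 kb between Foxq1 and Foxf2 and 175 kb between Foxf2 and Foxc1. Foxc1, which acts in skull and eye mesenchyme, stood at 7.99 and 8.23 TPM in replicates 1 and 2. Foxf2, a factor of palate mesenchyme and brain pericytes, stood at 4.32 and 3.92 TPM. Foxq1, known for its part in hair structure, stood at 2.67 and 2.43 TPM. In each face Foxc1 was highest, Foxf2 next and Foxq1 lowest, without overlap.

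On chromosome 8, Foxf1, Foxc2 and Foxl1 lie closer together, with 28.0 kb between Foxf1 and Foxc2 and 9.04 kb between Foxc2 and Foxl1. Foxf1, a Hedgehog target in mesenchyme, stood at 5.69 and 5.81 TPM in replicates 1 and 2. Foxc2, known from lymphatic valves and the palate, stood at 7.61 and 5.65 TPM. Foxl1, a factor of gut mesenchyme, stood at 0.78 TPM (40 counts) and 0.22 TPM (14.9 counts). Foxf1 was even between the faces, Foxc2 overlapped it, and Foxl1 was lowest in both libraries. A read-through gene model, Gm20388, spans all 3 of these genes on the same strand and was listed at 4.19 and 1.55 TPM (318 and 152 counts). Both it and Foxl1 had fewer counts in replicate 2, and how reads were divided between it and Foxl1, whose count in replicate 2 is fractional, was not tested.

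**Figure D2:**
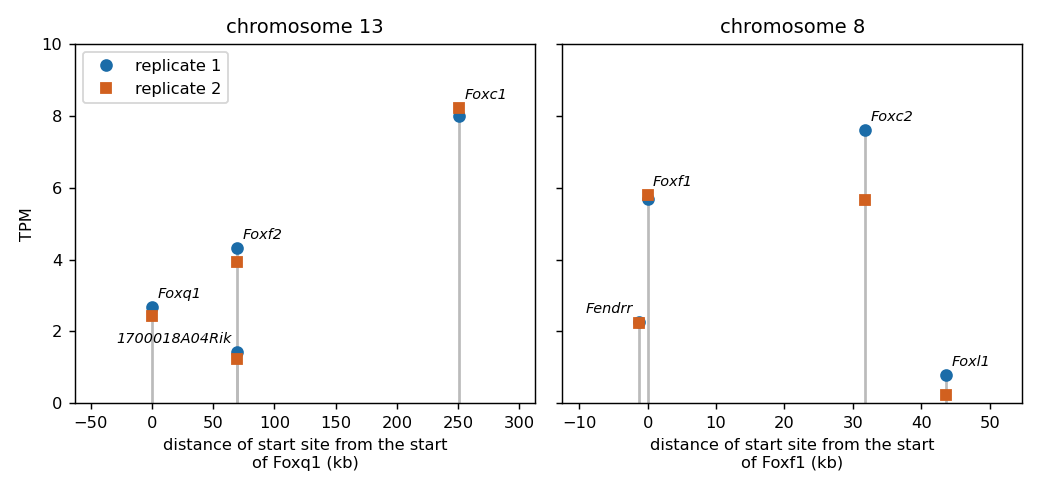
TPM of the forkhead genes of the chromosome 13 and chromosome 8 clusters against the distance of their start from that of Foxq1 or Foxf1 in kb, with circles for replicate 1 and squares for replicate 2. On chromosome 13 Foxq1 is lowest and Foxc1 highest, while on chromosome 8 Foxl1 lies below 1 TPM in both libraries, and the non-coding genes 1700018A04Rik and Fendrr start beside Foxf2 and Foxf1.

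Foxf1 and Foxf2 each have a non-coding gene that starts close by on the opposite strand. Fendrr starts 1276 bases from Foxf1 and stood at 2.25 and 2.23 TPM in replicates 1 and 2. 1700018A04Rik starts 24 bases from Foxf2 and stood at 1.44 and 1.22 TPM. Each was lower than its forkhead neighbour in both faces. The start regions of Foxc1 and Foxf2 are shown as those of the best detected genes of the chromosome 13 cluster that have a RefSeq window, with CpG dinucleotides in capitals, and the stretch of Foxf2 runs into the start of 1700018A04Rik.
Foxc1 chr13:31806396-31806632, plus strand: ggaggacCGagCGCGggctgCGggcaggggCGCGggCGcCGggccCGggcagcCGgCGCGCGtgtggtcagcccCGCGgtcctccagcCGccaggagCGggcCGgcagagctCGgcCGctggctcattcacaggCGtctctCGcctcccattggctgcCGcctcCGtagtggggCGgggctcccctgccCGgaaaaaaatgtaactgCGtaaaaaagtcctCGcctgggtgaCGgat
Foxf2 chr13:31625566-31625815, plus strand: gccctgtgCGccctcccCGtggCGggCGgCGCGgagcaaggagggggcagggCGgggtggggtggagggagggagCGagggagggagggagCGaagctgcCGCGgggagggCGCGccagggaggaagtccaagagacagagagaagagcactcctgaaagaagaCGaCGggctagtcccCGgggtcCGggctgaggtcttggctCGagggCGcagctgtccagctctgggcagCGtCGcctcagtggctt

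Hedgehog signalling is known to raise Foxf genes in facial mesenchyme. Of its 10 listed components 9 reached 1 TPM in both libraries, with a summed TPM of 118 and 107. Smo, the signal transducer, was highest at 38.6 and 33.7 TPM, followed by Gli3 at 17.7 and 15.4 TPM, and the ligand Shh was lowest at 0.49 and 0.38 TPM. The median log2 ratio of the 9 detected genes relative to the median gene was -0.00, with 4 above and 5 below it.

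Foxd1, a factor of kidney stroma and forebrain, stood at 5.71 and 4.27 TPM in replicates 1 and 2. Foxs1, known from pericytes and sensory neurons, stood at 3.01 and 3.30 TPM. The 6 pericyte and smooth muscle markers summed to 431 and 423 TPM, and their median log2 ratio relative to the median gene was 0.26, with 4 above and 2 below it. Foxs1 had 0.24, with a counting interval that included the median gene (0.890 to 1.67 as a ratio). Foxd2 (chr4, minus strand), whose product acts in kidney mesenchyme, stood at 1.04 and 0.61 TPM in replicates 1 and 2. Foxd2os, a non-coding gene that starts 384 bases away on the opposite strand, stood higher, at 5.66 and 4.91 TPM, with 148 and 147 counts beside 51 and 39 for Foxd2. Of the 20 non-coding genes in the tables within 5 kb of a forkhead gene, 3 reached 1 TPM in both libraries, and Foxd2os was the only one of the 3 above its forkhead neighbour. A further 2 reached it in replicate 1 alone: Gm12446, antisense to Foxe1, at 1.37 and 0.63 TPM, and Gm26770, near Foxm1, at 1.08 and 0.72 TPM. Strand handling was not given in the sources used here, so reads of overlapping genes on opposite strands may not have been told apart. Foxq1 (134.46 and 157.85 counts) overlaps A530084C06Rik (23.54 and 10.15 counts) on the opposite strand. Foxj2 (710.64 and 949.05 counts) overlaps Gm26826 (12.36 and 19.95 counts) likewise. All of these counts were fractional in both libraries, as where reads are divided between genes. The division itself was not tested. The stretch printed for Foxd2 lies between the starts of Foxd2 and Foxd2os.
Foxd2 chr4:114908899-114909148, minus strand: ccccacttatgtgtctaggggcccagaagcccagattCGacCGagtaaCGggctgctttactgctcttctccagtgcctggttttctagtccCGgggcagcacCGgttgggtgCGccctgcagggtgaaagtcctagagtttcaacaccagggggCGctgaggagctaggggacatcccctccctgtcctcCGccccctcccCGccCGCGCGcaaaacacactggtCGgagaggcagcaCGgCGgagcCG

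Several members known from narrow cell types lay near or below 1 TPM. Foxe1 stood at 1.31 and 1.26 TPM in replicates 1 and 2, while 2 of 6 thyroid markers reached 1 TPM in both libraries (summed TPM 9.36 and 13.9). Most of that difference came from Tg, the thyroid hormone precursor, at 2.70 and 6.93 TPM. Hhex stood at 5.02 and 5.01 TPM and Tshr at 0.52 and 0.48 TPM, as even between the faces as Foxe1. Pax8 stood at 0.60 and 0.75 TPM, and Slc5a5 at 0.47 and 0.32 TPM.

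Foxa3, a liver and gut factor, stood at 1.28 TPM (49 counts) in replicate 1 and 0.43 TPM (21 counts) in replicate 2. The liver list summed to 2.45 and 61.8 TPM, and Ttr alone, at 0.45 and 60.2 TPM, carried its rise. Alb stood at 1.12 and 0.97 TPM and Apoa1 at 0.81 and 0.55 TPM, both lower in replicate 2 in TPM. Relative to the median gene their log2 ratios were 0.03 and -0.09. None of the 5 genes of the list reached 1 TPM in both libraries. Foxi1, the factor of ionocytes, stood at 0.36 TPM (16 counts) and 0.75 TPM (43 counts). The ionocyte list summed to 2.85 and 2.42 TPM with 1 of 5 genes at 1 TPM in both. That gene, Atp6v1b1, had a log2 ratio of 0.12 relative to the median gene. Foxl2, a factor of ovary, pituitary and eyelid, stood at 0.67 and 0.55 TPM, and Foxl2os, which starts 11 bases from it on the other strand, at 0.61 and 0.45 TPM. Of 7 pituitary markers 3 reached 1 TPM in both libraries (summed TPM 29.2 and 26.3). Foxh1, the Nodal pathway factor, stood at 0.50 and 0.33 TPM on 12 and 10 counts. The start region of Foxi1 is shown as that of a member below 1 TPM, with 4 CpG dinucleotides in capitals.
Foxi1 chr11:34208090-34208339, minus strand: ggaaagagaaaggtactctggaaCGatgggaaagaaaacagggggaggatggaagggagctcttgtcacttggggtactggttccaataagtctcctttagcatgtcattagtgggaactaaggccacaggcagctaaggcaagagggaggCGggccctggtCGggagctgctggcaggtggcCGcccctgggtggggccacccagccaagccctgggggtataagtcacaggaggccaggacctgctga

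Of the remaining members, 3 had no count in either library: Foxd4, Foxb2 and Foxr2. The 5 others had at most 3 counts in either library: Foxp3, Foxe3, Foxb1, Foxr1 and Foxi2, and none exceeded 0.05 TPM. For these 8 genes the floor of 3 counts corresponded to between 0.0339 and 0.198 TPM, depending on gene length and library, so levels under that were not detectable at this depth. Foxe3 is a lens factor, and 2 of 6 lens markers reached 1 TPM in both libraries (summed TPM 5.68 and 6.53), with Cryga at no count. Foxb1 is known from the diencephalon. None of 5 germ cell markers reached 1 TPM in both libraries (summed TPM 3.73 and 3.43).

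Several members share exon structure that the choice of genes did not use. By the transcript with most counts, 12 members have a single exon. Of these 12, 6 reached 1 TPM in both libraries, none had a mean of 10 TPM, and their median was 1.06 TPM. Of the 27 members with several exons, 16 reached 1 TPM in both, 7 had a mean of 10 TPM or more, and the median was 3.74 TPM. Over all protein-coding genes 16.3% of those with a single exon and 69.8% of those with several reached 1 TPM in both libraries. The 12 single-exon forkhead genes are Foxb2, Foxc1, Foxc2, Foxd1, Foxd2, Foxd4, Foxe1, Foxe3, Foxl1, Foxl2, Foxq1 and Foxs1, and Foxc1 was highest among them.

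Of the 16 members with several annotated transcripts, 12 had a mean of 50 or more counts, and all 12 had the same transcript highest by TPM in both libraries, against 90.7% of the protein-coding genes treated alike. In Foxk2, Foxo3, Foxo4, Foxn2 and Foxm1 a single transcript held most of the TPM, from 81.6% for Foxm1-201 in replicate 2 to 96.2% for Foxk2-201 in replicate 2. In Foxj2, Foxj2-201 held 60.4% of the TPM in replicate 1 and 75.7% in replicate 2, and Foxj2-202 the rest. In Foxp2, Foxp2-207 held 49.1% and 48.8%, while Foxp2-201, which starts further inside the gene, held 11.4% and 23.5%. In Foxp4, Foxp4-202 held 48.4% and 38.6% and Foxp4-201 held 3.87% and 13.4%. The identity of the main transcript was therefore the same in both faces in these 12 genes, while the shares within Foxj2, Foxp2 and Foxp4 differed between them.

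**Figure D3:**
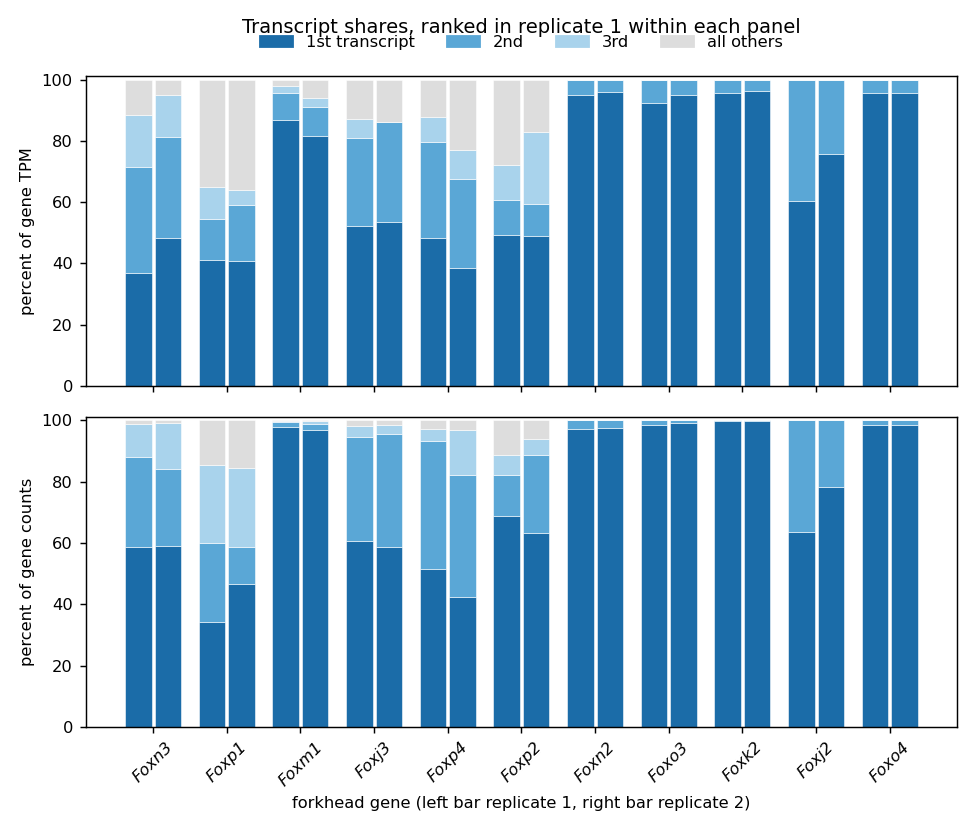
Percent of each gene's TPM (upper panel) and of its expected counts (lower panel) held by its transcripts, for 11 of the forkhead genes with several transcripts and 50 or more counts, the left bar of a pair for replicate 1 and the right bar for replicate 2. The leading transcript of Foxn3 differs between the panels, because the 566-base message holds much TPM on few counts, while Foxk2, Foxn2 and Foxo4 have 1 dominant transcript in both.

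RefSeq start windows, running from 250 bases before to 50 bases after an annotated start, were found for 24 members (27 windows, with 3 for Foxp1 and 2 for Foxp3). The 12 members at 1 TPM in both libraries that had a window held a median of 32.5 CpG dinucleotides in it, with a range of 6 to 59, and 9 of them held 20 or more, taking the richest window of a gene. The 5 members between that level and the floor held a median of 22, with a range of 6 to 27. The 7 with at most 3 counts held a median of 10, with a range of 3 to 16, and none reached 20. Over all 32851 windows, each taken singly and not as the richest of a gene, the median was 7 and 26.5% held 20 or more. None of the printed stretches comes from these 7 genes. The printed stretches are shorter parts of the 300-base windows and hold fewer CpG than these. Among the genes printed, the whole windows held 32 CpG for Foxc1, 27 for Foxf2, 26 for Foxd2 and 6 for Foxi1. For Foxp1, in a gene with a high level, the window at 99028298 held 44 and that at 99266515 held 5. Among the detected members Foxn3 stood apart with 6, but its window lies at a start that held 0.26% and 0.39% of the gene's TPM. It therefore did not describe the starts to which most of that TPM was assigned. Both Foxp3 windows also lie at starts whose transcripts had no count. The RefSeq start of Foxj2 lies between its annotated starts, and that of Foxl2 lies inside the gene. Those of Foxr1, Foxd4 and Foxi2, among the 7 genes with at most 3 counts, also lie inside the annotated gene. Foxn1, with 8, and Foxd1, with 15, were the other detected members below 20. The forkhead core TGTTTAC, searched on both strands, was in none of the 27 windows and in 3.65% of all windows, which says only that these letters are not in these stretches. This is a description over genes of 1 family, with no test.

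**Figure D4:**
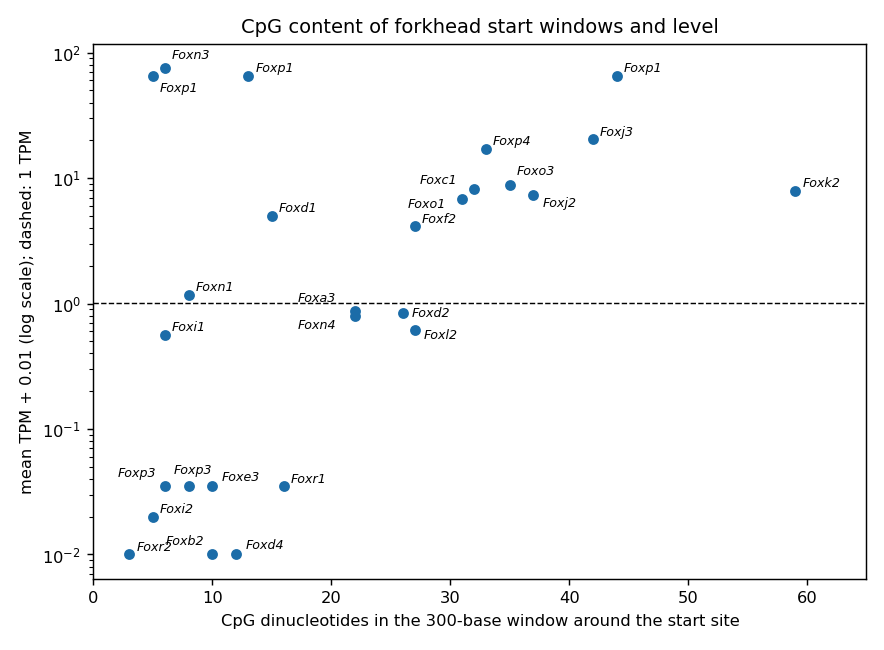
Mean TPM plus 0.01 on a log axis against the number of CpG dinucleotides in the 300-base start window, 1 point for each of the 27 windows of 24 forkhead genes, so that Foxp1 and Foxp3 appear more than once. Genes with at most 3 counts lie at 16 CpG or fewer, and Foxk2 has the most, with 59.

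Differences between the faces were read against the median gene, since the log2 ratio of replicate 2 to replicate 1 (on TPM plus 1, which understates the change of low genes) had a median of -0.14 over 13996 protein-coding genes with a mean of 1 TPM. In bulk tissue, fewer cells of a type and less RNA per cell cannot be told apart. Of 22 forkhead genes at that level, 13 were above and 9 below the median gene, with a median of 0.03 and a range from -0.43 for Foxp2 to 0.28 for Foxo3. Without centring on the median gene, 9 were above and 13 below 0, so the split depends on the reference. None reached 2-fold higher in replicate 2, beside 0.943% of protein-coding genes, and none 2-fold lower, beside 0.0929%.

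The counts allow a finer reading, limited to counting error. The ratio of replicate 2 to replicate 1 counts was divided by that of the median gene (1.17), with an exact 95% interval. Of 23 members with a mean of 50 counts, 12 had an interval that included 1. For 5 it lay above 1 (Foxn2, Foxo3, Foxc1, Foxj2 and Foxo1), beside 23.5% of 13936 protein-coding genes, and for 6 below 1 (Foxn3, Foxm1, Foxp2, Foxc2 and Foxd1 among them), beside 22.2%. These shares are near the background, and the intervals leave out the variation between embryos. Foxo3 had 1045 counts in replicate 1 and 1545 in replicate 2, a relative ratio of 1.27 (interval 1.17 to 1.37). Foxp2 had 1822 and 1678 counts, a relative ratio of 0.79 (0.739 to 0.845). Foxc2 had 394 and 378 counts, a ratio of 0.823 (0.713 to 0.95), and Foxd1 266 and 257, a ratio of 0.829 (0.696 to 0.988). Among the related genes, Foxo3 and Foxo1 lay above 1 together while Foxo4 spanned it (0.964, 0.806 to 1.16), and Foxc1 (1.14, 1.03 to 1.27) and Foxc2 lay on opposite sides of 1.

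The widest ratios belonged to members with few counts. Foxl1 had a relative ratio of 0.322 (0.165 to 0.595) and Foxa3 of 0.368 (0.209 to 0.625). Foxi1 went the other way at 2.31 (1.27 to 4.39). Each of these 3 intervals excluded 1, as did that of Foxn4 at 1.56 (1.01 to 2.45) on 34 and 62 counts. All of these genes fell under the limit of 50 counts and were not among the members counted above. For Foxd2 the interval of 0.421 to 1.02 included 1. That interval is relative to the median gene, while the 1 TPM limit is not. It therefore does not tell whether the crossing of that limit by Foxd2 was within counting error.

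**Figure D5:**
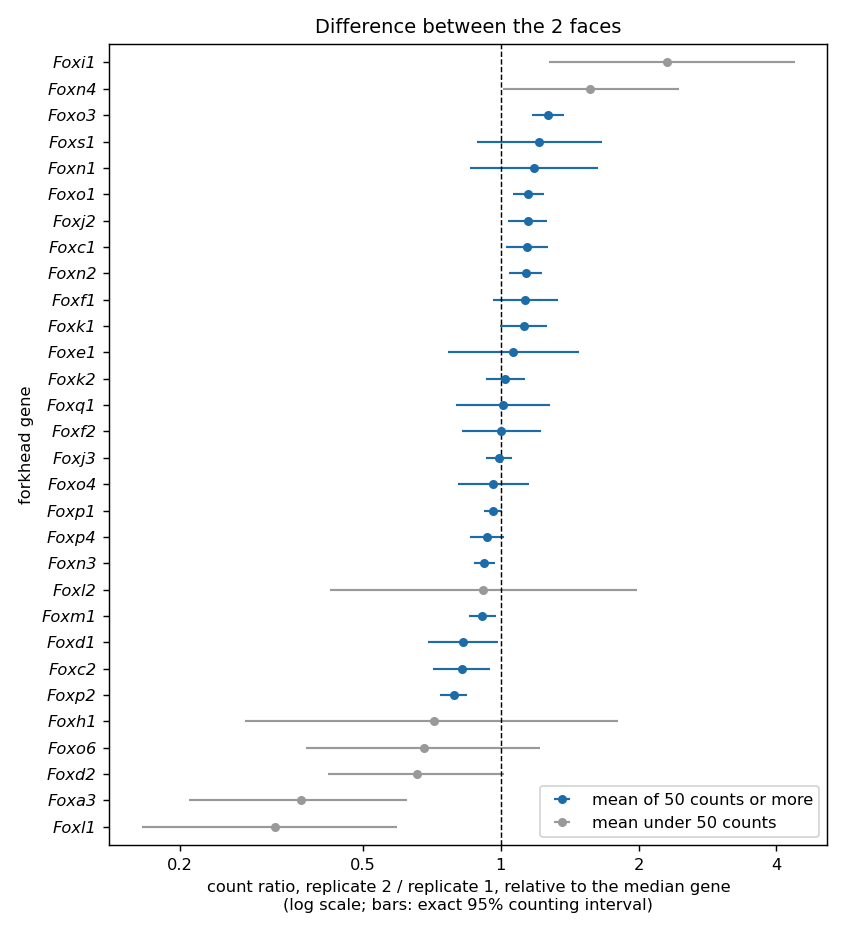
Count ratio of replicate 2 to replicate 1 relative to the median gene, on a log axis, with exact 95% counting intervals, for 30 forkhead genes above the near-silent ones, in grey where the mean was under 50 counts. Intervals are narrow for well detected genes such as Foxp1 and Foxo3 and wide for Foxh1 and Foxl2, and Foxl1, Foxa3 and Foxi1 lie farthest from 1.

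For scale, other families of developmental transcription factors were counted in the same way. Of 19 Sox genes 15 (78.9%) reached 1 TPM in both libraries, of 13 T-box genes 6 (46.2%), and of 39 Hox genes 11 (28.2%). T-box genes were taken as those with a symbol of Tbx plus a number, so members with other names were not counted. Median levels were 8.58 TPM for Sox, 2.55 TPM for forkhead, 0.89 TPM for T-box and 0.51 TPM for Hox genes. The forkhead family lay between the Sox and T-box families in both respects, a description with no test.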

How the data were processed

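Both libraries hold expected counts, which the authors estimated per gene and transcript and deposited without scaling to depth. TPM values are the authors' length-corrected levels, scaled to a fixed total over all sequences quantified, per the file headers and values. FPKM values were deposited beside them and served as an alternative. The percent of a gene's TPM per transcript is the authors', per the file headers. Build mm10 and GENCODE M4 are named in the deposited companion text, while aligner, strand setting and the quantifier's version were not given in the sources used here.

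GENCODE M21, which uses that build too, gave names, biotypes, exons and coordinates through the Ensembl identifiers, and 42462 of 43346 genes had a symbol (98.0%). Start sequences came from RefSeq (GRCm38.p6). A gene was called detected at 1 TPM or more in both libraries. Ratios used log2(TPM + 1) minus the median over protein-coding genes with a mean of 1 TPM. Counting intervals were exact Clopper-Pearson 95% intervals on expected counts rounded to whole numbers, for genes with a mean of 50 counts, and with the floor of 3 counts they cover counting error only. A main transcript was the one with the highest percent of TPM. Calculations were tested on simulated counts. With noise added beyond counting error, the interval excluded the median gene on the side tested for 24.2% to 25.2% of unchanged genes. A 2-fold rule on these counts found 54% of simulated 2-fold rises and 53.3% of 2-fold falls.

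Values were given for each member at 1 TPM in both libraries, between 0.5 and 2 TPM in either, or in the Foxc1 and Foxc2 clusters, for the highest 2 and lowest gene of each pathway list, and for non-coding neighbours at 1 TPM in either library. Marker genes, Foxl2os and overlapping genes were named beyond this rule after their values were seen. Counts cover all members and listed genes, and some single values are not reported here. The members and lists were chosen with earlier results of these data known. Alternatives were other thresholds, FPKM, other pseudocounts and filters, edgeR 4.0.16 and DESeq2 1.42.0 scaling factors, and each library alone. Python 3.11.15, pandas 2.3.3, scipy 1.17.1 and R 4.3.3 were used.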

Additional observations from a re-analysis of the deposited data

How the results depend on the processing

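The number of forkhead genes at 1 TPM in both libraries was 22, and it was 26 at 0.5 TPM, 20 at 2 TPM, 20 by FPKM, and between 22 and 25 in 1 library alone. The count of their non-coding neighbours went from 3 to 6 at 0.5 TPM, and was 3 to 5 in 1 library alone. The summed level of 308.4 TPM became 202 in FPKM, 340 when TPM was rescaled over Ensembl genes alone and 249.3 over transcripts of 1000 bases or more, the last chosen after seeing the data, and was 289 to 328 in 1 library alone. Of 31 named levels, 26 moved by more than 1 SD under FPKM, 19 under the rescaling and 5 under the longer transcripts. No forkhead gene with a mean of 1 TPM reached 2-fold in either direction under any pseudocount, unit or scaling run. Below that level Foxl1, Foxa3 and Foxi1 passed it, at log2 ratios of -1.31, -1.23 and 1.03 with a pseudocount of 0.1 TPM and of -1.65, -1.45 and 1.2 under edgeR scaling. The split of 13 members above and 9 below the median gene was 9 and 13 without centring, 11 and 11 without a filter, and 13 and 9 under edgeR and DESeq2 scaling, FPKM and the other pseudocounts. The numbers with counting intervals above and below the median gene ranged from 4 to 7 and from 4 to 8. No paired analysis was possible because there is 1 group. Depth limits members under about 50 counts, with 1 group of 2 samples limiting every difference.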
